A study of Mus musculus with 6 samples.

Results

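Polycomb complex genes encode the subunits of 2 protein complexes that keep genes silent, and 10 of them were followed here out of 21883 protein-coding genes. The genes were taken by name and not by any measured value, though earlier results of these data were known when they were chosen. Ezh1, Ezh2, Eed, Suz12 and Jarid2 encode subunits or partners of Polycomb repressive complex 2 (PRC2), and Bmi1, Rnf2, Cbx2, Cbx7 and Cbx8 encode subunits of Polycomb repressive complex 1 (PRC1). Each gene was represented by its territory, the RefSeq gene span plus 10 kb on either side, and by the ATAC-seq peaks in it. All 10 genes passed the requirement of a mean of 300 bp under peaks per library, as did 17707 of all genes.

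PRC2 places the repressive mark H3K27me3 through its catalytic subunit Ezh2 or the paralogue Ezh1, while Eed and Suz12 hold the complex together and Jarid2 helps to bring it to its targets. PRC1 reads that mark through its Cbx subunit, and its ring finger proteins Rnf2 and Bmi1 attach ubiquitin to histone H2A. In pancreatic β-cells, Ezh2 and Bmi1 are known for keeping the Cdkn2a locus, which codes for brakes on the cell cycle, silent in young animals.

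ATAC-seq marks accessible DNA by the insertions of the transposase Tn5. It was run on mouse pancreatic β-cells that had been sorted from dispersed islets as Tomato-positive cells, and all the mice had received tamoxifen. The genotype was Control in 3 libraries and Chd4KO in 3 libraries, and the series text calls the mutant mice Chd4Db. Chd4 is the remodelling ATPase of the NuRD complex. The labels used here name no Cre driver and no age, and separate animals are not stated for the libraries of a genotype. The p-values thus measure the spread between these samples alone, and that spread may be technical.

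The control libraries held 100109 to 110693 peaks and the knockout libraries held 119088 to 124125, covering 58.0 to 63.8 Mb and 65.8 to 69.1 Mb. Read depth is unknown, because the lists hold no counts. Libraries of the same genotype shared more of their covered bases (Jaccard index 0.785 to 0.825) than libraries of different genotype (0.626 to 0.647). The covered length at Chd4 itself differed by -0.16 ± 0.08 (SE) on the log2 scale, knockout against control (limma, adjusted p = 0.17), and peaks at a gene cannot check its deletion. Summed marker lengths, scaled to equal totals, were 31794 to 37343 bp in control and 28659 to 29587 bp in knockout libraries for β-cell genes, of which 8 of 8 had peaks. Those of acinar genes were 1546 to 1632 bp and 2885 to 3073 bp, with 3 of 4 genes holding peaks and Cpa1 at 0 in every library. Endothelial genes summed to 6168 to 6908 bp and 6817 to 7884 bp, leukocyte genes to 3957 to 5066 bp and 4508 to 5103 bp, α-cell genes to 5273 to 5802 bp and 4028 to 4514 bp, δ-cell genes to 3206 to 3732 bp and 2320 to 2399 bp, and genes of dividing cells to 5711 to 6242 bp and 5249 to 5613 bp. The part of these marker differences in the results on the Polycomb genes was not tested.

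The starts of the Polycomb genes lay in open regions found in control and knockout β-cells, and peaks covered each start in all 6 libraries except at Bmi1 in knockouts 1 and 3. A promoter entry in the RefSeq table of GRCm38.p6 (the assembly behind mm10) matched 9 of the 10 genes, with 10 entries because Jarid2 has a pair of starts. Every one of these starts lay in a region called in all 6 libraries, against 58.4% of 21262 protein-coding starts. The promoters were rich in G and C, with a median GC content of 65.2% over their 300 bases against 52.7% over 32851 promoters, and their median observed-to-expected ratio of CpG dinucleotides was 0.83 against 0.38. The last 250 bases before the start are shown for 4 genes. Bmi1 is the gene whose territory fell in covered length in the knockout, though only with scaling, and Rnf2 encodes its partner. Suz12 and Eed are the PRC2 core genes whose promoters hold the most kinds of motif and none. The sequences are from RefSeq and run 5′ to 3′ on the strand of the gene. Capitals mark matches to searched motifs on either strand. Bmi1 is at chr2:18676768-18677017 (plus strand), Rnf2 at chr1:151500992-151501241 (minus strand), Suz12 at chr11:79992856-79993105 (plus strand) and Eed at chr7:89980977-89981226 (minus strand).
Bmi1: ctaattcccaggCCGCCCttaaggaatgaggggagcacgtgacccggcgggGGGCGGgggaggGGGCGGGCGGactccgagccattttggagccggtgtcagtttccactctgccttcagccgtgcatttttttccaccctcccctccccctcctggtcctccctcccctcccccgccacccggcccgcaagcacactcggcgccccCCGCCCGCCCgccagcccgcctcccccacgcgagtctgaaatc
Rnf2: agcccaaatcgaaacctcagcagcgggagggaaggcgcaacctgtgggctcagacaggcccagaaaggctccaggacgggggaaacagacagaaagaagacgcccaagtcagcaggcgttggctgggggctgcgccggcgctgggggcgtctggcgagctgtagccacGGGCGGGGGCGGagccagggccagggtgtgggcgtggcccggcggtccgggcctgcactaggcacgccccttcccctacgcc
Suz12: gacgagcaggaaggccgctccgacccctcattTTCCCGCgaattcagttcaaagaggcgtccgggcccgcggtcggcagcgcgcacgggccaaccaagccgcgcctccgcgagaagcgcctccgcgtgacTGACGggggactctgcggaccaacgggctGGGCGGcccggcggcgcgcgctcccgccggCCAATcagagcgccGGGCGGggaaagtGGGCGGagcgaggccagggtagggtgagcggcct
Eed: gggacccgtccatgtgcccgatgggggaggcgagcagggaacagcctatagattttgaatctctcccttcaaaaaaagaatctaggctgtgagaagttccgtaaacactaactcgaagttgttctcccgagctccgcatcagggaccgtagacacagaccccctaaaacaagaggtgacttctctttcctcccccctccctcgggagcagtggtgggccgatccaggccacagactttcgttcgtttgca

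The GC box GGGCGG, or its reverse complement, was in 7 of the 10 promoters and in 32.7% of all promoters. CCAAT was in 5 of 10 and in 33.8%, the core of the cyclic AMP response element, TGACG, in 3 of 10 and in 17.8%, and the NRF1 motif core TGCGCA in 2 of 10 and in 6.43%. The E2F motif GCGGGAA was in Suz12 alone, against 3.82% of all promoters, and the ETS core TTCCGG in 1 Jarid2 promoter, against 12.0%. AAGATGG, the core of the YY1 motif, was in none of the 10 and in 4.49% of all promoters. Bmi1 held 6 GC boxes, the nearest at bases -43 and -39 from the start, and some of the 6 overlap. Suz12 held 4 of the motif kinds, with its E2F match at base -218. At the second Jarid2 start a TGACG and a GGGCGG match overlap. All motifs were searched on both strands of the 250 bases before each start. A match is a description of the letters and not a measured binding site.

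The peak summits lay close to these starts at most of the genes. At Ezh1 the summit was at -7 to -5 bp from the start in all 6 libraries, at Suz12 at -80 to -79 bp, at Ezh2 at -59 to -52 bp, at Jarid2 at -110 to -100 bp and at Cbx7 at -116 to -109 bp. By −log10 q, the Ezh2 start peak ranked at percentiles 98.7 to 99.2 of its own library, while the Bmi1 start peak ranked at percentiles 61.2 to 78.1 in the 3 controls and knockout 2. The Bmi1 start lies beside a gap: control 2 had a single peak across it, and the other 5 libraries had one peak upstream of the gap and another that began between -25 and 16 bp from the start. The start regions did not differ in width past the threshold at any gene. The closest was Eed, where the region at chr7:89980145-89981654 covered 1320, 1347 and 1297 bp in the control libraries and 1481, 1387 and 1506 bp in the knockout libraries. All 3 knockout values were higher, as at 18.8% of all shared regions, with a log2 ratio of 0.14 ± 0.04 SE (limma, adjusted p = 0.095). The start region of Rnf2 and the region at Cbx2 separated in the same direction, and the start region of Bmi1 in the other. Cbx2 has its region at the low end of its span, at chr11:119022621-119023617, with 954 ± 12.6 bp in control and 984 ± 5.86 bp in knockout libraries (SD, n = 3 each).

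Of the 10 genes, 1 had a covered length that fell in the knockout and none had one that rose, after scaling each library to the mean total. The gene was Bmi1. Over all 17707 genes, 14.5% fell and 7.56% rose at the same threshold (limma, adjusted p under 0.05). The median log2 fold change of the 10 genes was -0.13, against -0.09 over all genes. At an unadjusted p under 0.05, 4 of the 10 were lower and none higher, against 27.8% and 12.1% of all genes. The direction depended on the scaling: without it the median over all genes was 0.15 higher, none of the 10 genes passed in either direction, and 14.6% of all genes rose and 2.88% fell. In these pools of sorted cells, fewer cells with an open site and less opening per cell cannot be told apart.

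**Figure D1:**
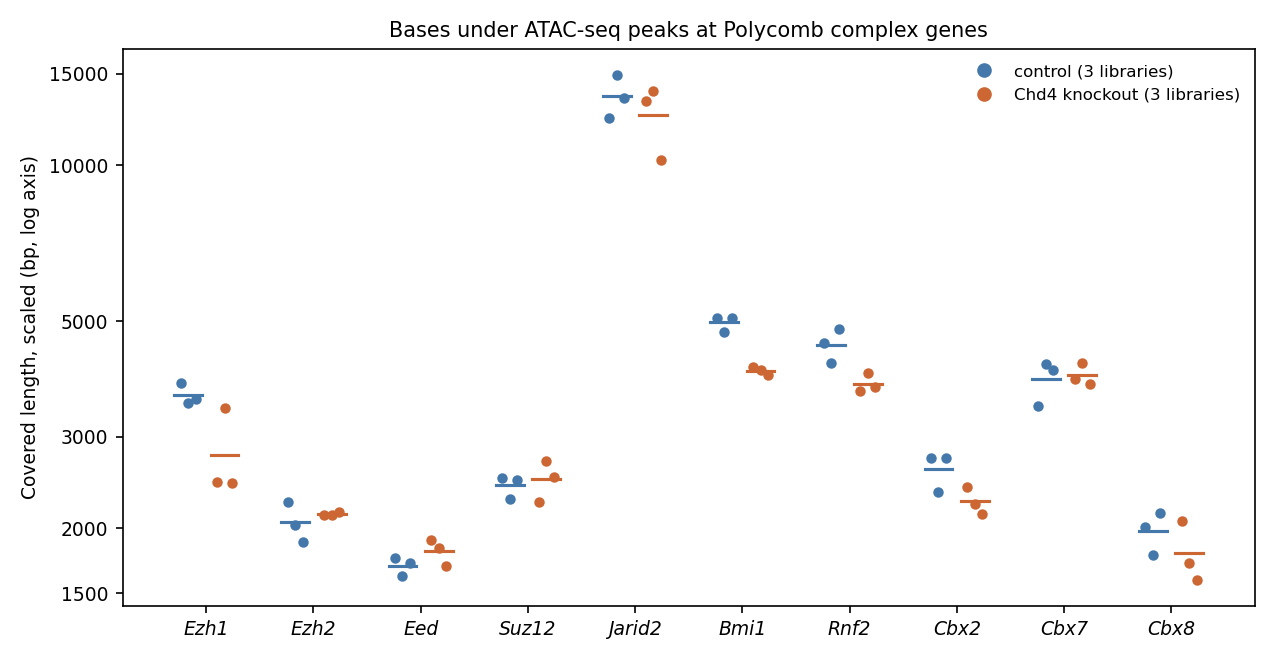
Scaled bases under peaks (y axis, bp, log scale) in the territory of each of the 10 genes (x axis) for the 3 control and the 3 Chd4 knockout libraries (1 point per library, lines at the group means). Bmi1, Ezh1 and Rnf2 have all knockout points below all control points.

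Among the PRC2 genes, no covered length passed the test. Ezh1 (chr11:101191115-101226463), the catalytic subunit that is abundant in non-dividing cells, had 3811, 3487 and 3551 scaled bp in the control libraries and 2450, 3406 and 2441 in the knockout libraries. The groups did not overlap, but knockout 2 was close to the controls. Its log2 fold change was -0.37 ± 0.12 (SE; limma, adjusted p = 0.059), and -0.51 (adjusted p = 0.011) without knockout 2. Ezh1 stayed short of the threshold when any other single library was left out (limma, adjusted p between 0.11 and 0.16). With unscaled lengths the Ezh1 groups overlapped, at -0.21 (limma, adjusted p = 0.34). Ezh2 (chr6:47530274-47595270), the catalytic subunit that is abundant in dividing cells, had 2251, 2033 and 1885 scaled bp in control and 2119, 2122 and 2147 in knockout libraries. The knockout values lay inside the control range (0.05 ± 0.07, limma, adjusted p = 0.66). With 50 kb on either side instead of 10 kb, its log2 fold change was 0.40 and passed (adjusted p = 0.013).

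Eed (chr7:89954654-89980976), which binds the H3K27me3 mark, had 1751, 1621 and 1713 scaled bp in control and 1897, 1834 and 1688 in knockout libraries, with overlapping groups (0.08 ± 0.07, limma, adjusted p = 0.43). Suz12 (chr11:79993106-80034123), the scaffold of PRC2, had 2502, 2278 and 2473 against 2247, 2691 and 2514 scaled bp. Its groups overlapped too (0.03 ± 0.08, limma, adjusted p = 0.78). Jarid2 (chr13:44730774-44921643), a cofactor of PRC2 and the longest of the 10 genes at 190870 bp, had 12329, 14941 and 13465 scaled bp in control and 13267, 13903 and 10236 in knockout libraries. Knockout 3 was the lowest of the 6, and the groups overlapped (-0.13 ± 0.12, limma, adjusted p = 0.45). Without scaling, the knockout libraries were all higher than the control libraries at Ezh2, Eed and Suz12, as at 28.5% of all genes, and no change at these genes passed (log2 fold changes 0.20, 0.22 and 0.18, limma, adjusted p = 0.11, 0.057 and 0.14).

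Among the PRC1 genes, Bmi1 fell and Rnf2 came near the threshold. Bmi1 (chr2:18677018-18686629), the ring finger protein that partners Rnf2, had 5082, 4780 and 5085 scaled bp in the control libraries and 4089, 4028 and 3941 in the knockout libraries. Every knockout value was below every control value, and the means were 4982 ± 175 and 4019 ± 74.6 bp (SD, n = 3 each). The log2 fold change was -0.29 ± 0.06 (SE; limma, adjusted p = 0.014). Without control 3 its adjusted p was 0.055, without scaling the log2 fold change was -0.13 (adjusted p = 0.13), and with 50 kb flanks it was -0.15 (adjusted p = 0.22). The territory of Bmi1 holds 5 regions, and only the one over the start touches the Bmi1 span. That region (chr2:18676307-18677985) covered 1515, 1628 and 1520 bp without scaling in the control libraries and 1508, 1417 and 1367 bp in the knockout libraries. The knockout libraries were all lower, as at 14.0% of all shared regions, and the width did not pass (-0.12 ± 0.05, limma, adjusted p = 0.20). A region in the neighbouring gene Gm46725 (chr2:18690176-18690541) covered 366, 217 and 330 bp in the control libraries and 0, 202 and 0 bp in the knockout libraries. Another in Gm46725 had 981 ± 90.8 and 900 ± 82.9 bp, one at Commd3 924 ± 1.73 and 943 ± 23.3 bp, and one at Spag6 919 ± 20.3 and 915 ± 32.6 bp (SD, n = 3 each, unscaled), with overlapping groups. The covered length is therefore not that of Bmi1 alone.

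Rnf2 (chr1:151469398-151500991), the ubiquitin ligase of PRC1, had 4542, 4151 and 4846 scaled bp in control and 3672, 3984 and 3736 in knockout libraries. The groups did not overlap (-0.23 ± 0.07, limma, adjusted p = 0.054). It passed with 2 kb flanks (adjusted p = 0.039), with 50 kb flanks (0.024) and without control 2 (0.038). Without scaling its groups overlapped and it did not pass (-0.07, limma, adjusted p = 0.48). Nor did it pass with the 50000 strongest peaks (0.16), with the replicate number as a block (0.092) or without any other single library (0.073 to 0.16). With scaling, Ezh1, Bmi1 and Rnf2 were thus 3 of 10 genes with all knockout values below all controls, against 32.7% of all genes. None of the 10 had all knockout values above all controls, against 13.1%. Without scaling, 1 of the 10 lay wholly below, against 9.68% of all genes, and it was Bmi1.

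Of the Cbx genes, whose proteins read H3K27me3, none passed, though Cbx8 did with 50 kb flanks (-0.20, limma, adjusted p = 0.049). Cbx2 (chr11:119023019-119031275) had 2728, 2351 and 2727 scaled bp in control and 2403, 2228 and 2129 in knockout libraries (-0.18 ± 0.08, limma, adjusted p = 0.12). Cbx8 (chr11:119036303-119040913) had 2015, 1776 and 2138 against 2069, 1712 and 1587 scaled bp (-0.13 ± 0.10, limma, adjusted p = 0.38). These genes are neighbours, and 2 of the 4 regions in their territories are in both, so their values are not independent. Cbx7 (chr15:79915804-79971143), on another chromosome, had 3438, 4139 and 4036 scaled bp in control and 3882, 4163 and 3795 in knockout libraries (0.03 ± 0.08, limma, adjusted p = 0.81). The control and knockout libraries overlapped at all 3 genes.

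**Figure D2:**
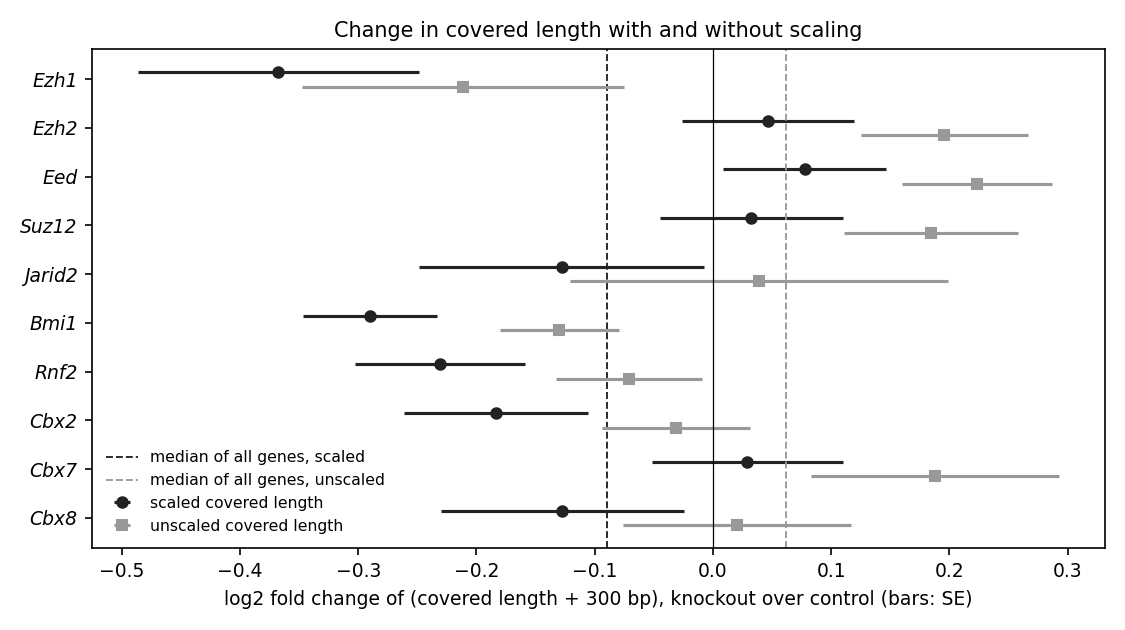
Log2 fold change of covered length plus 300 bp, knockout over control (x axis, bars are SE), for the 10 genes with scaling (black circles) and without (grey squares), with the medians of all genes as dashed lines at -0.09 and 0.06. Removing the scaling moves every gene to the right, and Bmi1 at -0.29 with scaling is the one point that passed the test.

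Regions gained in the knockout, those with a peak in every knockout library and no control peak, were found at Eed, Suz12, Jarid2 and Cbx7. The territories of the 10 genes held 86 regions, of which 45 were shared by all 6 libraries, 5 were gained, 2 were lost and 34 had another pattern. Gained regions were 5.81% of the 86 against 8.93% of the 108961 regions in gene territories, lost regions 2.33% against 2.83%, and shared regions 52.3% against 50.2%. None of these shares was tested. The count of gained regions was 8 without knockout 3, and that of lost regions was 6 without knockout 2 and 4 without control 1. The shares of all regions with those libraries left out are not given here.

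All 5 gained regions lay inside gene spans and none over a start. The gained region at Jarid2 and the one nearest the Cbx7 start lay close to shared regions, which begin at bases 44877455 and 79932188. The Eed region (chr7:89973102-89973423) lay 7553 bp into the gene and covered 261, 322 and 237 bp in the knockout libraries. The Suz12 region (chr11:80022897-80023177) lay 29791 bp into the gene, with 255, 281 and 202 bp. The Jarid2 region (chr13:44876890-44877349) lay 145619 bp from the nearer start, with 449, 455 and 382 bp. Cbx7 held 2 of the 5. One (chr15:79931647-79932005) lay 641 bp downstream of the RefSeq start, with 274, 323 and 349 bp, and the other (chr15:79962631-79962998) lay at -29985 bp from that start but within the span, with 345, 255 and 368 bp. Their peaks ranked low: within their own libraries, by −log10 q, the 15 knockout peaks ran from percentile 1.20 to 46.4 with a median of 19.9, and the authors' fold enrichments from 2.87 to 6.33. None of the 5 was gained when each list was limited to its 50000 strongest peaks, and all 5 were at q under 0.001.

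The 2 lost regions, called in all control and no knockout libraries, were also inside genes. The Jarid2 region (chr13:44746908-44747394) covered 364, 483 and 453 bp in the control libraries, and the Ezh2 region (chr6:47561278-47561802) covered 525, 200 and 272 bp. Their 6 peaks ranked between percentiles 10.2 and 31.6. A region of Ezh2 at chr6:47587034-47587827, chosen after its values were seen, missed the gained pattern because of control 2. It covered 778, 792 and 750 bp in the knockout libraries and 0, 304 and 0 bp in the control libraries. It lay 7203 bp into the gene. Its authors' fold enrichment was 15.0, 12.1 and 15.3 in the knockout libraries and 3.7 in control 2, and its peaks ranked at percentiles 55.3 to 69.5 in the knockout libraries and at 9.7 in control 2.

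**Figure D3:**
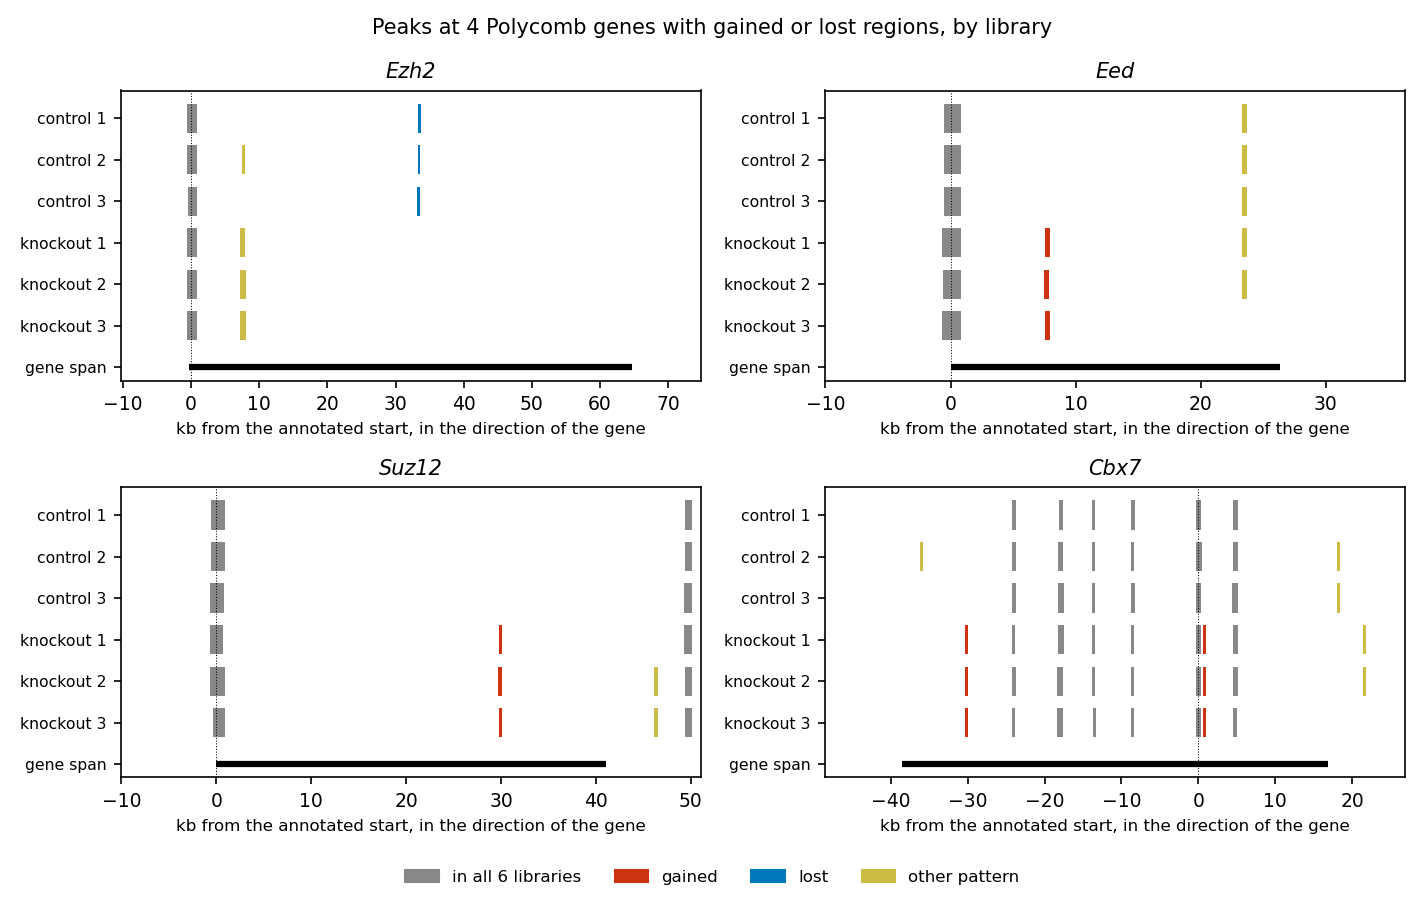
Peaks of the 6 libraries (1 row each) at Ezh2, Eed, Suz12 and Cbx7, against distance from the gene start (x axis, kb), with peaks narrower than 0.4 kb drawn 0.4 kb wide. The gained regions show as bars in the 3 knockout rows only, and the start peaks as bars in all 6 rows.

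Suz12 was the only one of the 10 genes whose peak numbers did not overlap between the groups. It had 2 peaks in each control library and 3, 4 and 4 in the knockout libraries (exact permutation test, two-sided p = 0.1, the smallest that 3 against 3 can give). It was named after its values were seen, and the share of all genes that separate in this way was not counted. Summed over the 10 genes, peaks numbered 59, 66 and 61 in control and 64, 70 and 58 in knockout libraries. The groups overlapped, with means of 62 ± 3.6 and 64 ± 6 (SD, n = 3 each; exact permutation test, two-sided p = 0.7). Without knockout 2 the difference of 2 peaks became -1. Over all peaks of a library, the ratio of the knockout mean to the control mean was 1.17 (exact permutation p = 0.1).

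Jarid2 held 40 of the regions and was the gene with the most. Its regions were 17 shared, 1 gained, 1 lost and 21 of another pattern, of which 8 were called in a single library. Peaks numbered 24, 29 and 25 in control and 27, 29 and 22 in knockout libraries, and the means were both 26. Of the 17 shared regions, 2 were wider and 2 narrower in every knockout library than in any control library, and 13 overlapped. Over all 75312 shared regions, 18.8% were wider and 14.0% narrower in every knockout library.

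**Figure D4:**
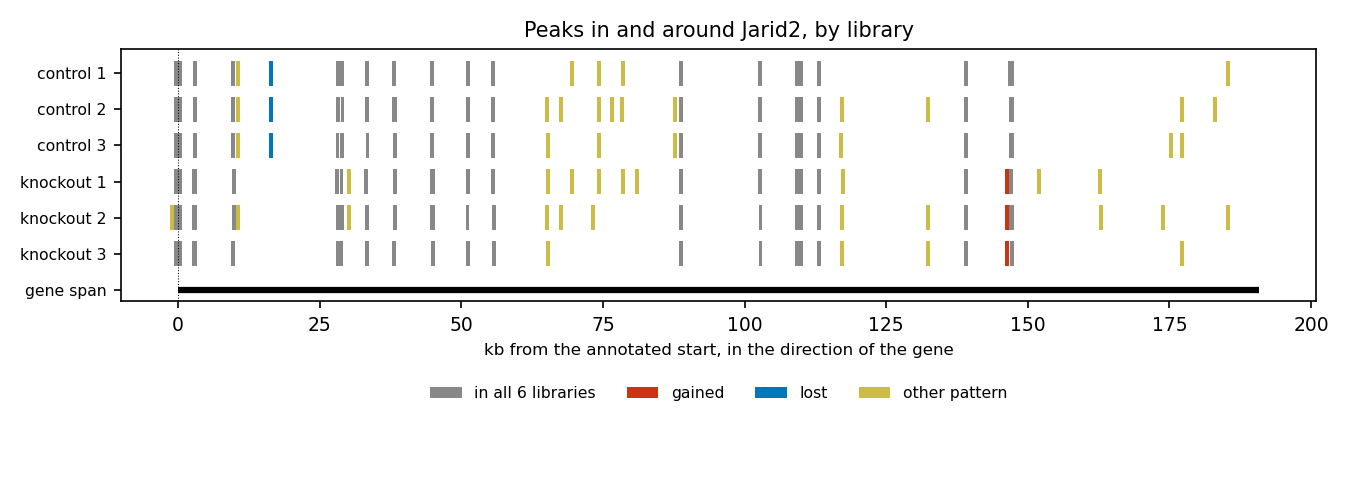
Peaks of the 6 libraries (1 row each) across the Jarid2 territory, against distance from the gene start (x axis, kb), with peaks narrower than 0.7 kb drawn 0.7 kb wide. The 17 shared regions, among them the start, line up in all rows, and the 1 gained and 1 lost region each appear in the 3 rows of one genotype.

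One Jarid2 region narrowed, and it was the only shared region of the 10 genes to pass. At chr13:44833253-44833757, 101982 bp downstream of the nearer, second start, it covered 484, 505 and 461 bp in the control libraries and 316, 324 and 320 bp in the knockout libraries. The knockout libraries lay far below the controls and close to one another, with a log2 ratio of -0.59 ± 0.09 (SE; limma, adjusted p = 0.020). The adjusted p rose to 0.076, 0.065 and 0.061 without knockout 1, 2 and 3. None of the 45 shared regions became wider past the threshold, against 4.37% of 75312 shared regions, and 1 became narrower, against 2.62%. At an unadjusted p under 0.05, 6 were wider and 4 narrower, against 14.3% and 10.0% of all shared regions. The median log2 width ratio was -0.01 over the 45 regions and 0.01 over all shared regions.

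Of the regions that did not pass, the nearest to the threshold were at Jarid2 and Rnf2. A Jarid2 region at chr13:44786087-44786682 covered 554 ± 28.7 bp in control and 380 ± 58.3 bp in knockout libraries (log2 ratio -0.55 ± 0.14, limma, adjusted p = 0.071), and one at chr13:44733178-44734191 covered 766 ± 20.4 and 927 ± 75.4 bp (0.27 ± 0.07, limma, adjusted p = 0.072; SD, n = 3 each). An Rnf2 region at chr1:151480231-151481312 covered 1032, 1062 and 1046 bp in control and 936, 944 and 851 bp in knockout libraries. It was narrower in each knockout library than in any control library, as were 14.0% of all shared regions (-0.20 ± 0.05, limma, adjusted p = 0.072).

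**Figure D5:**
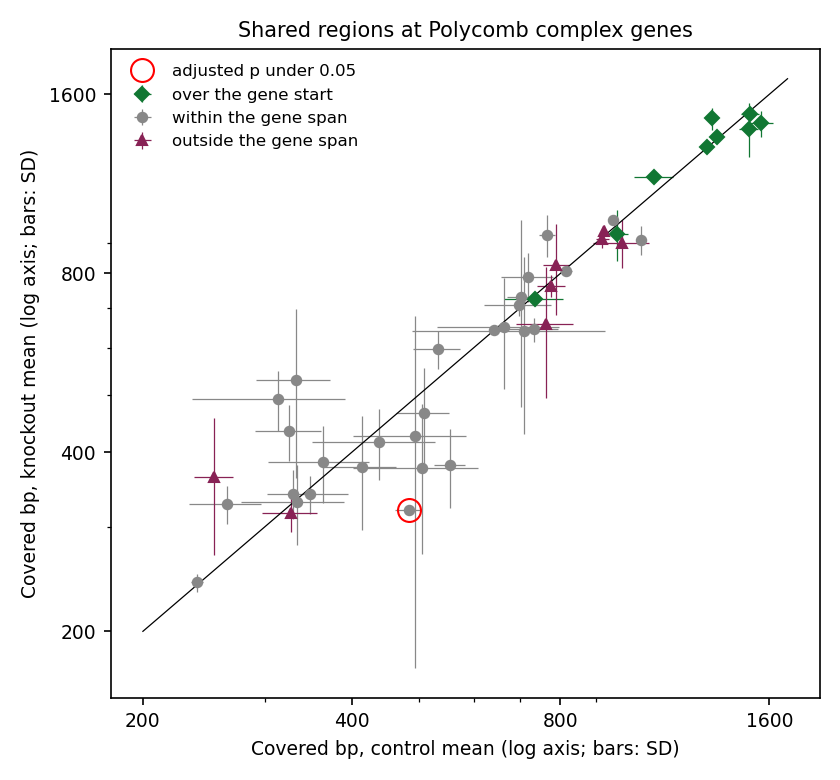
Mean bases covered in the knockout libraries (y axis, bp, log scale) against the control libraries (x axis, bp, log scale) for the 45 shared regions, with SD bars over 3 libraries, marked by place relative to the gene. The regions over starts lie among the wider ones near the line of equality, and the circled Jarid2 region, at 483 bp in control and 320 bp in knockout libraries, lies below it.

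Most other genes of the Polycomb group did not pass. Of the 25 tested, 1 rose and 2 fell, with a median log2 fold change of 0.01, while 7.56% of all genes rose and 14.5% fell around a median of -0.09. Pcgf6 (chr19:47033617-47050939), a ring finger protein of a variant PRC1, rose from 1594 ± 128 to 2107 ± 232 scaled bp (SD, n = 3 each; 0.34 ± 0.09, limma, adjusted p = 0.035). Rybp (chr6:100228565-100287358), a subunit of the variant complexes that compete with Cbx proteins for Rnf2, fell from 5213 ± 403 to 3566 ± 668 scaled bp (-0.52 ± 0.12, limma, adjusted p = 0.023). Pcgf1 (chr6:83077552-83080855), another ring finger protein of variant PRC1, fell from 2364 ± 337 to 1803 ± 96.3 scaled bp (-0.33 ± 0.10, limma, adjusted p = 0.043). Leaving out single libraries ended these calls for Pcgf6 (each control, knockout 1 and knockout 2; adjusted p up to 0.10), for Rybp (controls 1 and 3, knockout 1; up to 0.081) and for Pcgf1 (any library; up to 0.10). With 2 kb and 50 kb flanks Pcgf6 was at -0.08 and 0.03 (limma, adjusted p = 0.41 and 0.75) and Pcgf1 at -0.09 and -0.12 (0.28 and 0.13). Rybp was at -0.26 with 50 kb flanks (limma, adjusted p = 0.065), and Pcgf6 at 8.4e-05 with the 50000 strongest peaks (0.999). Without scaling, Rybp and Pcgf1 did not pass and 3 of the 25 rose, Pcgf6, Pcgf2 and Phc1. In that unscaled fit 14.6% of all genes rose and 2.88% fell.

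Of 15 genes listed as opposing Polycomb by the activity of their complexes, 3 fell and none rose, beside the same 14.5% and 7.56% of all genes. Their median log2 fold change was -0.13 against -0.09. The list held histone demethylases, trithorax group methyltransferases with partners, and the histone H2A deubiquitinase complex. Whether these products oppose Polycomb silencing in β-cells was not tested. Kmt2b (chr7:30568855-30589056) and Kmt2a (chr9:44803355-44881352), methyltransferases of histone H3 lysine 4, fell from 3648 ± 249 to 2877 ± 45.1 scaled bp (-0.31 ± 0.07, limma, adjusted p = 0.017) and from 7633 ± 653 to 5953 ± 530 scaled bp (-0.34 ± 0.09, limma, adjusted p = 0.030). Asxl1 (chr2:153345830-153404007), a partner of the histone H2A deubiquitinase Bap1, fell from 4299 ± 645 to 2989 ± 139 scaled bp (-0.47 ± 0.10, limma, adjusted p = 0.019). Without control 1 or without control 3 none of the 3 passed (limma, adjusted p between 0.050 and 0.10), and single knockout libraries ended the call for Kmt2a (knockout 2 or 3) and Asxl1 (knockout 1). With the 50000 strongest peaks, Asxl1 was at -0.06 (limma, adjusted p = 0.80) and Kmt2b at -0.16 (0.060). Without scaling, of these 3 only Asxl1 passed (-0.32, limma, adjusted p = 0.049), and Kmt2d and Ash2l rose. The shares of all genes were then 14.6% higher and 2.88% lower. The Polycomb target loci did not change past the threshold. Cdkn2a had 2890 ± 204 scaled bp in control and 2607 ± 126 in knockout libraries (-0.13 ± 0.07, limma, adjusted p = 0.20), and Cdkn2b, its neighbour, had 2028 ± 135 and 1766 ± 134 (-0.17 ± 0.08, limma, adjusted p = 0.14). The territories of these neighbours overlap, so their values are not independent. At Cdkn2b all scaled knockout values lay below all controls, as at 32.7% of all genes. Without scaling the log2 fold changes of Cdkn2a and Cdkn2b were 0.02 and -0.03.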

How the data were processed

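ATAC-seq peaks of 3 control and 3 Chd4 knockout β-cell libraries were used, 1 deposited list of narrow peaks per library, with no pooling of replicates per the file headers and the labels. The genome build is mm10 per the submitters' processing notes; the peak names in the deposited lists point to MACS2, and for the aligner, the filters and other settings nothing is given in the sources used here. Each deposited list gives the authors' score, fold enrichment (a ratio), −log10 p and −log10 q per peak, all at q under 0.05; these values are the authors' and only describe or rank peaks within a list. Sorting yielded 27000 to 80000 cells per the labels.

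Peaks overlapping by at least 1 bp were merged into 156745 regions. Covered length was the bases under peaks in a gene span plus 10 kb, scaled to the mean total of the libraries, as log2(bp + 300), and was tested with limma 3.58.1 (R 4.3.3) with an intensity trend over 17707 of 21883 protein-coding genes with a mean of at least 300 bp. Widths of 75312 regions called in all 6 libraries were tested likewise, unscaled. P-values were two-sided and Benjamini-Hochberg adjusted, threshold 0.05. Named in full were the 10 genes, the genes of the other lists past the threshold (at most 8 per list), Cdkn2a and Cdkn2b, every gained and lost region, shared regions past the threshold and start regions. The genes and lists were chosen with earlier results of these data known. The fits were tested on simulated data. Alternatives were other scaling, pseudocounts, filters, flanks, peak cuts, overlap, trend, replicate block and leaving out each library.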

Additional observations from a re-analysis of the deposited data

How the results depend on the processing

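The pseudocounts of 100 and 1000 bp, the absence of a filter and peaks at q under 0.001 left all counts of the Polycomb genes within 1.5 times their value. Of the 10 genes, 1 fell; this count was 0 without scaling, 2 with 2 kb flanks, 2 with 50 kb flanks, 0 with the 50000 strongest peaks and 0 to 2 without single libraries, and none rose except 1 (Ezh2) with 50 kb flanks. Of the other Polycomb group genes 1 rose and 2 fell: 3 and 0 without scaling, 4 and 1 with 50 kb flanks, 2 and 6 with the strongest peaks, 0 to 2 and 0 to 2 without single libraries, and 1 fell without the trend. Of the opposing genes none rose and 3 fell: 2 and 1 without scaling, 1 and 1 with the strongest peaks, 0 to 1 and 0 to 3 without single libraries. The 1 narrower region became 2 with scaled widths, 0 with the strongest peaks and 0 to 1 without single libraries, and 0 to 1 became wider. Gained regions numbered 1 with the strongest peaks, 11 with 50 kb flanks and 5 to 8 without single libraries; lost regions 4 with 50 kb flanks, 1 when a peak had to cover 50% of a region, and 2 to 6. Apart from the unscaled fit, the shares of all genes and regions under these alternatives are not given here. The counts above thus cannot be set against them. The peak difference of 2 became -4.33 with the strongest peaks, 8.33 with 50 kb flanks and -1 to 5 without single libraries. The fold changes that changed sign were Eed -0.082 with 50 kb flanks; Suz12 -0.029, -0.073 and -0.069 with 2 kb flanks, 50 kb flanks and the strongest peaks; Cbx7 -0.034, -0.099 and -0.27 with the same; Jarid2 0.039 and Cbx8 0.020 without scaling; and Pcgf6, which rose, -0.080 with 2 kb flanks. Without single libraries the ranges were -0.0063 to 0.11 (Ezh2), -0.021 to 0.095 (Suz12), -0.21 to 0.0046 (Jarid2) and -0.048 to 0.076 (Cbx7). The causes of these changes were not tested. With the replicate number as a block, 1 of the 10 genes still fell, 0 of the other Polycomb group genes rose and 1 fell, and 0 regions narrowed (the Jarid2 region at adjusted p 0.095). The deviations from the group mean of each gene correlated at 0.13, 0.09 and -0.03 between control and knockout libraries of the same number. The numbers are therefore not taken as pairs. Read depth is unknown, and a missing peak may lie just under the calling threshold.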
